A study of Homo sapiens with 6 samples.

Results

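Growth differentiation factor 15 (GDF15) was silenced by siRNA in a human thyroid cancer cell line, and 10 genes of the IL6 cytokine family and of its signaling chain were followed in the RNA sequencing data. They were the ligand genes IL6, LIF, IL11 and CLCF1, the receptor genes IL6R, IL6ST and OSMR, the kinase gene JAK1, the transcription factor gene STAT3 and the inhibitor gene SOCS3. The genes were chosen by name, and all 10 were found among the 34738 genes of the expression table. Poly(A) RNA was compared between 3 libraries of siGDF15 cells and 3 libraries of control cells (NC). All 6 libraries carry the label KHM-5M, a line established from a human thyroid cancer, although a legend of the paper places the expression profiling in TPC-1 cells. The only agent that differs by label is the knockdown of GDF15. The deposited design text calls the controls blank, whereas the methods of the study speak of negative control cells and list a control siRNA. If the controls were blank, an effect of transfection cannot be told apart from that of losing GDF15. The cells come from 1 line, 1 siRNA against GDF15 is listed, the methods describe the replicates of each group as biological, and no time point after transfection is given for the RNA.

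Cytokines of the IL6 family signal through gp130, the shared receptor subunit encoded by IL6ST. IL6 and IL11 first bind their own receptor chain (IL6R, IL11RA), whereas LIF, CLCF1 and oncostatin M bring gp130 together with a second signaling chain such as LIFR or OSMR. Janus kinases bound to the receptors, JAK1 first among them, then phosphorylate STAT3, which enters the nucleus and switches on target genes, among them SOCS3, whose protein blocks the receptor complex in a feedback loop. IL6 is a core factor of the senescence-associated secretory phenotype (SASP), and its transcription is classically driven by NF-κB, C/EBP and AP-1 factors. RNA levels do not show whether STAT3 was phosphorylated.

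The promoter sequences of 3 of these genes are shown because they belong to the member with the largest rise (IL6), to the receptor gene that rose (OSMR) and to the ligand gene with the largest fall (IL11). RefSeq windows of GRCh38.p14, from 250 bases before to 50 bases after an annotated start, were at hand for 8 of the 10 genes, in 11 windows. LIF and CLCF1 had no entry. The windows lie at chr7:22726950-22727249 on the plus strand (IL6), chr5:38845762-38846061 on the plus strand (OSMR) and chr19:55370414-55370713 on the minus strand (IL11). Letters are given 5′ to 3′, and capitals mark the matches to the searched motifs.
IL6: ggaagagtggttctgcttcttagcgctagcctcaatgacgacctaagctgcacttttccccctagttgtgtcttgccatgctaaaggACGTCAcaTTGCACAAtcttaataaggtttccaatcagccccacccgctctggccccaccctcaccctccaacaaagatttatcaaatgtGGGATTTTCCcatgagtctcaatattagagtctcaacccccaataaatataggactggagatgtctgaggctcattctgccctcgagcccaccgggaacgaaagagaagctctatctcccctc
OSMR: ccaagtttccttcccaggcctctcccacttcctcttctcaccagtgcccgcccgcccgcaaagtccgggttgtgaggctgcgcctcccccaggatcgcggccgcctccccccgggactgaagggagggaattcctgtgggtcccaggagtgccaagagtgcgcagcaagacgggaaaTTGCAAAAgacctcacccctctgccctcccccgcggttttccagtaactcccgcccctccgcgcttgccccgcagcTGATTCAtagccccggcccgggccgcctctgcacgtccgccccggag
IL11: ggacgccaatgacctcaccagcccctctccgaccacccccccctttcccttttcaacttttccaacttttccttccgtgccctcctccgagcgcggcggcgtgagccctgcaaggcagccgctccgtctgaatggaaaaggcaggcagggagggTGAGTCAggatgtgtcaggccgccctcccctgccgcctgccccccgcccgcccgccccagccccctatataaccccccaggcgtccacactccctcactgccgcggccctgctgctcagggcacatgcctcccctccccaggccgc
On both strands of the windows 6 motifs were searched: the NF-κB consensus, AP-1 (TGANTCA), CRE (ACGTCA), C/EBP (TTGCNNAA), STAT (TTCNNNGAA) and the TATA box (TATAAA). The IL6 window held an NF-κB match, GGGATTTTCC, from 73 to 64 bases before the start, a C/EBP match, TTGCACAA, from 155 to 148 bases before it, and a CRE match from 163 to 158 bases before it. The OSMR window held a C/EBP match, TTGCAAAA, from 73 to 66 bases before the start and an AP-1 match just after it. The IL11 window held an AP-1 match, TGAGTCA, from 96 to 90 bases before the start. The windows not shown also held matches: AP-1 in IL6R, NF-κB in IL6ST and CRE in a JAK1 window. These genes did not pass the expression test described below, whereas the windows of STAT3 and SOCS3, which did, held none. Among all 35116 windows, 11.3% held the NF-κB consensus, 10.5% the C/EBP motif, 7.98% the CRE motif, 7.71% the AP-1 motif, 7.66% the STAT motif and 11.5% the TATA box. None of the 11 windows held the STAT letters, which says nothing of sites elsewhere. No matches overlapped in the 3 windows shown, and a match is a description of the letters only.

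The values are FPKM (mapped fragments scaled by transcript length and by library size), which can be compared between genes, and expected counts, which were used for the tests. How the counts were made is not given in the sources used here. The most frequent count from 1 to 20 was 4, so they were treated as estimates, with a read pair taken as about 4 counts. Totals of expected counts lay between 67569576 and 68025163 in NC and between 51738814 and 67793417 in siGDF15, with the lowest total in siGDF15 replicate 2. The share of counts held by mitochondrial genes was 6.39 to 6.78% in NC but 8.53 to 9.17% in siGDF15, and the part of this shift in the results was not tested. GDF15 itself was measured at 22.4, 19.3 and 23.1 FPKM in NC and at 10.8, 10.5 and 10.7 FPKM in siGDF15, so the targeted transcript was lower in every siGDF15 library (log2 fold change -0.92 with a standard error, SE, of 0.079, and an edgeR adjusted p of 2.4e-05). Of 6 thyroid epithelial markers analysed here, PAX8 and FOXE1 had a mean of at least 1 FPKM, whereas TG, SLC5A5 and NKX2-1 were under it, so the labelled tissue shows in its transcription factors and not in its hormone synthesis genes. The 6 summed to between 56.9 and 67.9 FPKM in NC and between 80.3 and 83.6 FPKM in siGDF15. All 5 epithelial markers (EPCAM, KRT8, KRT18, KRT19, CDH1) were over 1 FPKM, with sums of 102 to 148 FPKM in NC and 126 to 136 FPKM in siGDF15. The endothelial markers PECAM1, CDH5 and VWF summed to at most 0.198 FPKM in any library, and the immune markers PTPRC, CD3E and CD14 were under 1 FPKM while CD68 was over it. Of the 4 fibroblast markers, PDGFRB, LUM and COL1A1 were over 1 FPKM and the list summed to between 11.0 and 15.1 FPKM in NC and between 11.5 and 13.5 FPKM in siGDF15. In bulk RNA, fewer cells of a kind and less RNA per cell cannot be told apart.

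Silencing of GDF15 was accompanied by a rise of IL6 from a low level, by smaller rises of OSMR, CLCF1 and STAT3, and by falls of SOCS3 and LIF. IL11 fell as well, but its call held in only 9 of 14 alternative settings of the analysis. The receptor genes IL6R and IL6ST and the kinase gene JAK1 did not pass the test. Expected counts were compared with edgeR's quasi-likelihood test, adjusted over 11867 genes with a mean of at least 1 FPKM. All 10 genes passed that filter, IL6 only through its siGDF15 libraries. At an adjusted p-value under 0.05, 4 of the 10 genes were higher in siGDF15, where 30.0% of all tested genes were, and 3 were lower, where 31.4% of all tested genes were. The median log2 fold change was 0.07 over the 10 genes and 0.00257 over all tested genes. When library totals alone were used for scaling, without TMM (trimmed mean of M-values), the median of all genes moved to -0.0992 and the share of higher genes among those past the test from 48.9 to 36.6%. At a log2 fold change of at least 1, which 3.03% of tested genes reached upwards and 4.78% downwards, IL6 alone was differentially expressed. FPKM values of the 2 groups did not overlap for 7 of the 10 genes, with siGDF15 above NC for 4 (25.6% of all tested genes) and below it for 3 (42.8%). An exact permutation test on 3 against 3 libraries cannot give a two-sided p below 0.1. Groups that do not overlap always give that p, as these 7 genes did, so the test adds nothing to the count.

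**Figure D1:**
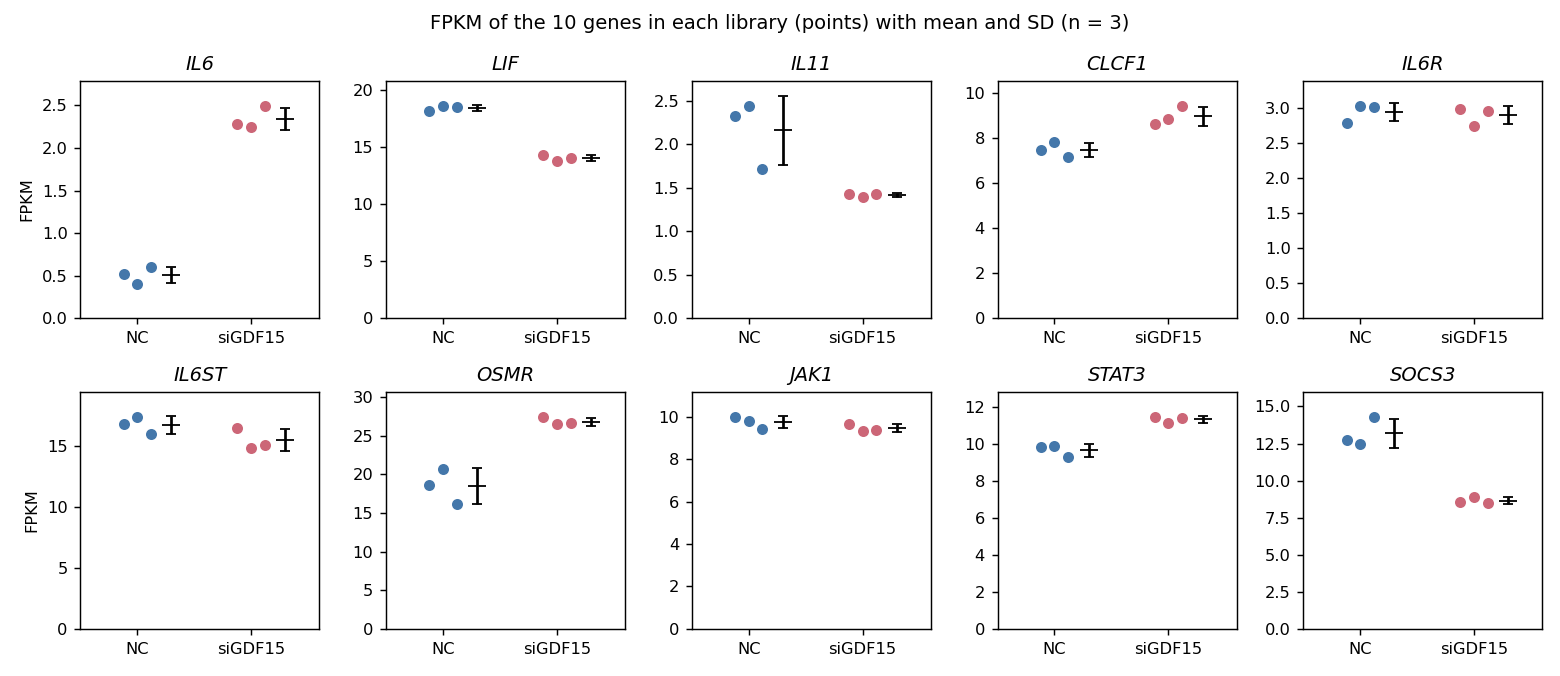
FPKM (vertical axis, from 0) of each of the 10 genes in the 3 NC (blue) and 3 siGDF15 (red) libraries, with the mean and SD (n = 3) as black bars. The siGDF15 points of IL6, CLCF1, OSMR and STAT3 lie above all NC points, those of LIF, IL11 and SOCS3 lie below them, and the points of IL6R, IL6ST and JAK1 overlap.

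IL6 (ENSG00000136244, GRCh38 chromosome 7 from 22725884 to 22732002, plus strand) encodes the founding cytokine of the family. It was measured at 0.525, 0.406 and 0.599 FPKM in NC and at 2.28, 2.25 and 2.49 FPKM in siGDF15. Every siGDF15 library was above every NC library, and the gap was many times the spread within either group. The means were 0.510 ± 0.0970 FPKM (SD, n = 3) and 2.34 ± 0.128 FPKM (SD, n = 3). The fitted log2 fold change was 2.29 (SE 0.16, edgeR adjusted p = 8.2e-06), a 4.90-fold rise that ranked 28 from the top among 11867 tested genes. These values rest on 135 to 195 expected counts in NC, about 33.8 to 48.8 read pairs, and on 565 to 808 counts in siGDF15. With the filter lowered to a mean of 0.1 FPKM, which IL6 passes in both groups, the log2 fold change was 2.26. On the log2(FPKM + 1) scale, which understates the change of low genes, it was 1.15 with limma. The antisense gene IL6-AS1 overlaps the start of IL6 and had mean FPKM values of 0.198 in NC and 0.438 in siGDF15.

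LIF (ENSG00000128342, chromosome 22 from 30240453 to 30246759, minus strand) encodes leukemia inhibitory factor, which acts through LIFR and gp130. It was the most abundant of the 4 ligand genes, with 18.1, 18.5 and 18.5 FPKM in NC and 14.3, 13.8 and 14.1 FPKM in siGDF15. The libraries of each group lay close together and the groups did not overlap. Its log2 fold change was -0.28 (SE 0.044, edgeR adjusted p = 6.7e-04). IL11 (ENSG00000095752, chromosome 19 from 55364382 to 55370463, minus strand), a cytokine of fibrosis and of the decidua, had 2.33, 2.43 and 1.71 FPKM in NC and 1.43, 1.39 and 1.43 FPKM in siGDF15. NC replicate 3 lay closer to the siGDF15 libraries than to the other NC libraries. The log2 fold change of IL11 was -0.50 (SE 0.16, edgeR adjusted p = 0.026), and the call was lost when any 1 of 5 libraries (NC replicates 1 and 2, siGDF15 replicates 1 to 3) was left out, with edgeR adjusted p-values of up to 0.090. Without NC replicate 3 the log2 fold change was -0.64 and the adjusted p from edgeR was 0.0042. CLCF1 (ENSG00000175505, chromosome 11 from 67364168 to 67374177, minus strand), which encodes cardiotrophin-like cytokine, was measured at 7.48, 7.80 and 7.17 FPKM in NC and at 8.62, 8.85 and 9.40 FPKM in siGDF15. Its siGDF15 libraries were all higher, with a log2 fold change of 0.36 (SE 0.074, edgeR adjusted p = 0.0028). The gene RAD9A overlaps CLCF1 on the opposite strand and went from a mean of 3.68 to 2.08 FPKM. The library kit marks strand, and whether the counting used it is not given in the sources used here.

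Taken as a share of the summed FPKM of the 4 ligand genes, IL6 went from 1.79 ± 0.375% (SD, n = 3) in NC to 8.75 ± 0.295% (SD, n = 3) in siGDF15. The share of LIF went from 64.5 ± 1.49% to 52.5 ± 1.16% and that of CLCF1 from 26.2 ± 0.589% to 33.5 ± 0.997% (SD, n = 3). IL11 held 7.54 ± 1.25% in NC and 5.30 ± 0.0732% in siGDF15 (SD, n = 3). The sum itself was 28.5 ± 0.592 FPKM in the controls and 26.8 ± 0.563 FPKM after silencing (SD, n = 3). Divided by the TMM factors, a scaling added after seeing the data, the sums were 27.6 ± 0.473 and 27.7 ± 0.529 (SD, n = 3) and overlapped, so the direction of the sum depended on the scaling, which leaves the shares as they are. LIF RNA was 31.0 to 45.6 times that of IL6 in the NC libraries and 5.65 to 6.25 times that of IL6 in the siGDF15 libraries.

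**Figure D2:**
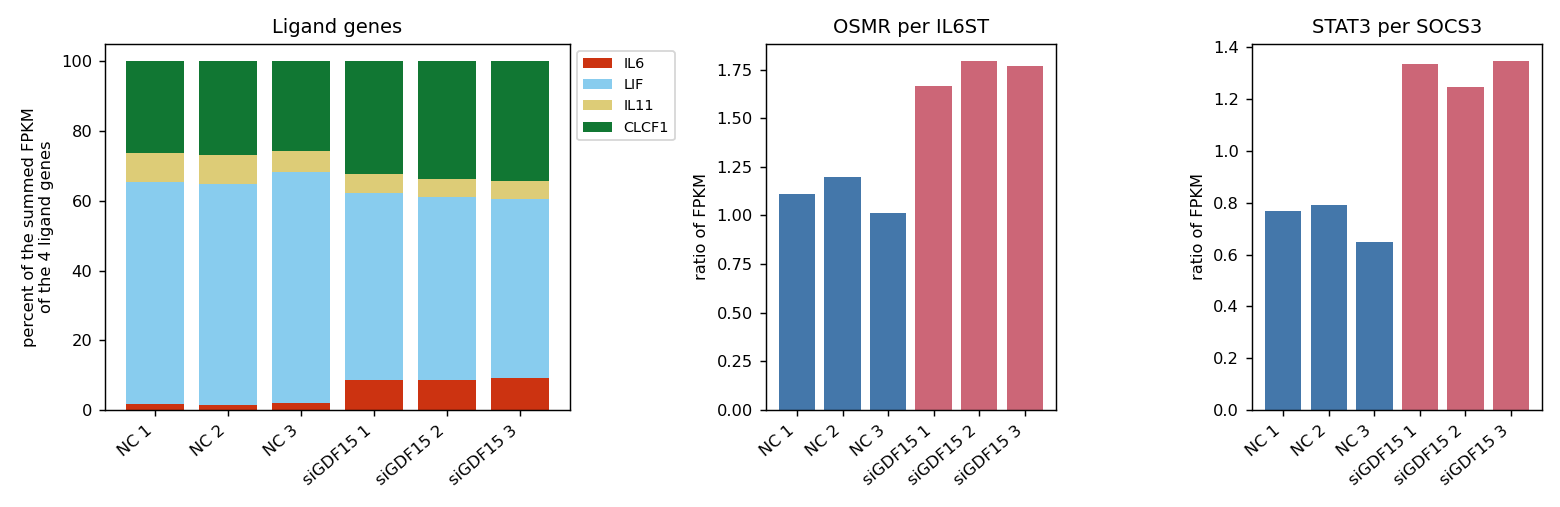
Left, share (percent) of the summed FPKM of the 4 ligand genes held by each gene, stacked for each library; middle and right, FPKM of OSMR divided by that of IL6ST and of STAT3 divided by that of SOCS3 in NC (blue) and siGDF15 (red) libraries, on axes from 0. The IL6 share is at most 2.14% in NC and at least 8.57% in siGDF15, and both ratios are higher in every siGDF15 library than in any NC library.

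Among the receptor genes, OSMR (ENSG00000145623, chromosome 5 from 38845858 to 38945596, plus strand) was the one that changed. It encodes the oncostatin M receptor, which pairs with gp130 for oncostatin M and with IL31RA for IL31. It was measured at 18.6, 20.7 and 16.1 FPKM in NC and at 27.4, 26.5 and 26.6 FPKM in siGDF15. The siGDF15 libraries were all higher and lay closer together than those of NC. The means were 18.5 ± 2.31 and 26.8 ± 0.506 FPKM (SD, n = 3), with a log2 fold change of 0.64 (SE 0.080, edgeR adjusted p = 1.8e-04), a 1.56-fold rise. RICTOR overlaps the end of OSMR on the opposite strand and had means of 2.10 and 1.68 FPKM in NC and siGDF15.

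IL6ST (ENSG00000134352, chromosome 5 from 55935095 to 55995022, minus strand), the gp130 gene, had 16.8, 17.3 and 15.9 FPKM in NC and 16.5, 14.8 and 15.1 FPKM in siGDF15. The groups overlapped, and the fitted log2 fold change was -0.01 with a 95% interval from -0.13 to 0.11 (adjusted p = 0.91 from edgeR). IL6R (ENSG00000160712, chromosome 1 from 154405193 to 154466877, plus strand), the binding chain for IL6, had 2.78, 3.02 and 3.01 FPKM in NC and 2.98, 2.74 and 2.94 FPKM in siGDF15. Its libraries overlapped too, with a log2 fold change of 0.08 and a 95% interval from -0.07 to 0.23 (adjusted p = 0.31 from edgeR). A change as large as that of OSMR lies outside both intervals. The FPKM of OSMR divided by that of IL6ST was 1.11, 1.20 and 1.01 in NC, compared with 1.67, 1.79 and 1.77 in siGDF15. The corresponding ratio of IL6R to IL6ST was 0.176 ± 0.0118 in NC and 0.187 ± 0.00742 in siGDF15 (SD, n = 3), and its libraries overlapped.

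JAK1 (ENSG00000162434, chromosome 1 from 64833223 to 65067746, minus strand), the kinase that gp130 depends on most, had 9.98, 9.82 and 9.43 FPKM in NC and 9.67, 9.30 and 9.38 FPKM in siGDF15. The groups overlapped, and the log2 fold change was 0.06 with a 95% interval from -0.03 to 0.16 (adjusted p = 0.23 from edgeR). STAT3 (ENSG00000168610, chromosome 17 from 42313324 to 42388540, minus strand), the transcription factor of the pathway and itself among its own targets, had 9.81, 9.89 and 9.26 FPKM in NC and 11.4, 11.1 and 11.4 FPKM in siGDF15. All siGDF15 libraries were above all NC libraries, by a small margin relative to the level. The log2 fold change was 0.34 (SE 0.042, edgeR adjusted p = 2.0e-04), a 1.26-fold rise.

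SOCS3 (ENSG00000184557, chromosome 17 from 78356778 to 78360077, minus strand) encodes the feedback inhibitor that binds gp130 and JAK kinases. It was measured at 12.8, 12.5 and 14.3 FPKM in NC and at 8.57, 8.90 and 8.49 FPKM in siGDF15. Every siGDF15 library was lower, and the means were 13.2 ± 0.961 and 8.65 ± 0.221 FPKM (SD, n = 3). The log2 fold change was -0.50 (SE 0.072, edgeR adjusted p = 4.2e-04), the largest fall in size among the 10 genes, close to that of IL11 and within its error. STAT3 and its target gene SOCS3 thus differed in direction. The FPKM of STAT3 divided by that of SOCS3 was 0.769, 0.791 and 0.649 in NC and 1.34, 1.25 and 1.35 in siGDF15, so that SOCS3 RNA exceeded STAT3 RNA in every NC library and STAT3 RNA exceeded SOCS3 RNA in every siGDF15 library.

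**Figure D3:**
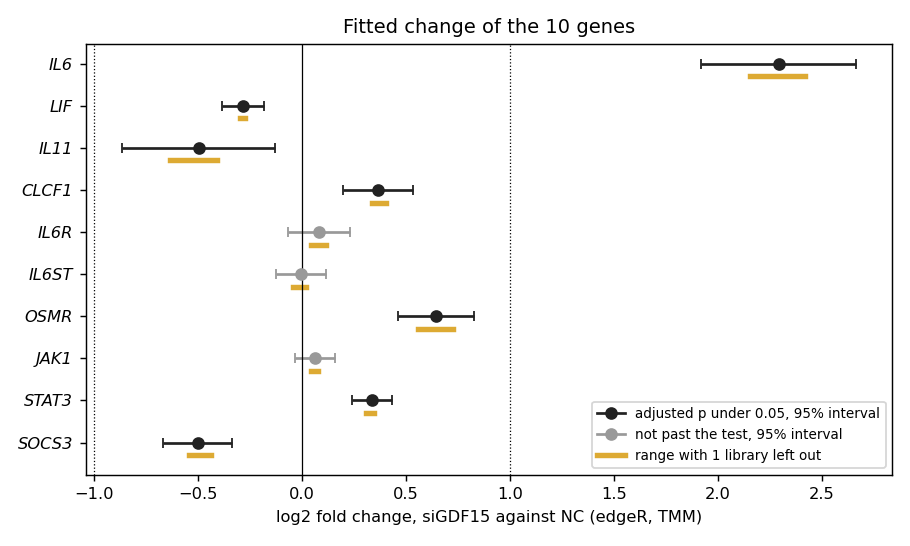
Fitted log2 fold change of siGDF15 against NC (horizontal axis) for the 10 genes, with 95% intervals from edgeR (black, adjusted p under 0.05; gray, not past the test) and the range over fits that leave out 1 library each (yellow); dotted lines mark a log2 fold change of 1 in either direction. IL6 at 2.29 lies alone beyond the dotted lines, and the intervals of IL6R, IL6ST and JAK1 include 0.

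In FPKM, the order of the levels in NC ran from OSMR and LIF, whose libraries overlapped, through IL6ST, SOCS3, JAK1, STAT3, CLCF1, IL6R and IL11 to IL6. JAK1 and STAT3 overlapped as well, and the other neighbours in this order did not. In siGDF15 the order was OSMR, IL6ST, LIF, STAT3, JAK1, CLCF1, SOCS3, IL6R, IL6 and IL11, with overlaps of JAK1 with CLCF1 and of CLCF1 with SOCS3. SOCS3 thus moved from rank 4 to rank 7 and IL6 from rank 10 to rank 9, above IL11. IL6 remained a low transcript, since its mean of 2.34 FPKM in siGDF15 was under that of 8 of the other 9 genes. The coefficient of variation within a group (SD relative to the mean) was larger in NC than in siGDF15 for 7 of the 10 genes. The share of all tested genes with a larger coefficient in NC was not computed. The largest coefficients were those of IL6 and IL11 in NC, at 19.0 and 18.1%.

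The rest of the pathway was described from 6 lists with 66 genes, of which 44 were tested. Of these, 16 (36.4%) were higher and 8 (18.2%) lower at an adjusted p-value under 0.05, against 30.0% and 31.4% of all tested genes. The median log2 fold change was 0.06. Without TMM, 14 of these genes were higher and 12 lower, and limma on log2(FPKM + 1) gave 15 and 14. No gene named OSM, IL27 or CNTFR was found in the expression table, so these were not tested. Of 3 tested genes for other ligands and partners of the family, CNTF (ciliary neurotrophic factor) had a log2 fold change of 0.51 (adjusted p = 0.036 from edgeR), a call that was lost in 8 of 14 alternatives, and EBI3 did not pass the test. Of 4 tested receptor genes, IL31RA rose from 7.71 to 11.0 FPKM and IL27RA fell from 12.9 to 8.48 FPKM, with log2 fold changes of 0.62 and -0.50 (adjusted p = 0.0024 and 2.9e-04 from edgeR). IL31RA, the partner of OSMR in the IL31 receptor, therefore rose along with OSMR. LIFR and IL11RA, the receptors for LIF and IL11, had log2 fold changes of 0.14 and -0.11 and did not pass the test. Both tested receptor proteases, ADAM10 and ADAM17, which can release soluble IL6R from the cell surface, were higher, with log2 fold changes of 0.36 and 0.47 (adjusted p = 0.0011 and 8.3e-04 from edgeR). The genes of these 3 lists were named after their values were seen.

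Of 6 tested other Janus kinase and STAT genes, 1 (16.7%) was higher and 2 (33.3%) were lower, against 30.0% and 31.4% of all tested genes. STAT2, which transmits type I interferon signals, rose from 3.52 to 6.79 FPKM (log2 fold change 1.05, SE 0.095, edgeR adjusted p = 3.1e-05). TYK2 fell from 11.7 to 6.64 FPKM (log2 fold change -0.71, adjusted p = 1.3e-05 from edgeR) and JAK2 from 1.64 to 1.19 FPKM (log2 fold change -0.36, adjusted p = 0.010 from edgeR). Of 11 tested negative regulators other than SOCS3, 3 (27.3%) were higher and 2 (18.2%) lower, against the same shares of all tested genes. PTPN1, a phosphatase of JAK2 and TYK2, rose from 27.1 to 38.9 FPKM (log2 fold change 0.62, adjusted p = 1.4e-05 from edgeR). SOCS6 rose with a log2 fold change of 0.48 and SOCS4 fell with one of -0.33 (adjusted p = 7.2e-04 and 0.0030 from edgeR). PIAS4 rose by 0.23 and SOCS7 fell by 0.26 on the log2 scale, both named after their values were seen, and the call of PIAS4 was lost in 4 of 14 alternatives. SOCS1, the nearest relative of SOCS3 in function, had a log2 fold change of 0.41 with an adjusted p of 0.16 from edgeR.

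Of 30 known STAT3 target genes, 18 were tested, of which 8 (44.4%) passed the test upwards and 3 (16.7%) downwards, against 30.0% and 31.4% of all tested genes, the median of the log2 fold changes being 0.06. CEBPD, a C/EBP factor of the acute phase, rose from 25.3 to 65.9 FPKM (log2 fold change 1.49, SE 0.11, edgeR adjusted p = 1.0e-05). ICAM1, an adhesion molecule, rose from 6.20 to 14.4 FPKM (log2 fold change 1.32) and SAA1, an acute phase protein, from 3.66 to 8.33 FPKM (log2 fold change 1.28), with adjusted p-values from edgeR of 1.9e-05 and 4.4e-04. Reads of SAA1 can be shared with its near copy SAA2, which was under the filter. BIRC5, an inhibitor of apoptosis that is also a mitotic protein, fell from 25.8 to 9.73 FPKM (log2 fold change -1.30, adjusted p = 3.1e-06 from edgeR). CCND1, the gene of cyclin D1, fell from 93.97 to 44.8 FPKM (log2 fold change -0.96, adjusted p = 1.9e-05 from edgeR), and MCL1, named after its values were seen, fell by 0.22 on the log2 scale. MYC, JUNB, FOS, PIM1, BCL3, VEGFA and HIF1A did not pass the test and were likewise named afterwards, with log2 fold changes between -0.31 and 0.07. BCL3 (edgeR adjusted p = 0.059) passed it in 9 of 14 alternatives, PIM1 and JUNB in 2 and VEGFA in 1. BCL6, BCL2L1, CEBPB, IRF1 and TIMP1, named after their values were seen, rose by less, with log2 fold changes of 0.29 to 0.47, and the call of IRF1 was lost with limma at both pseudocounts. ICAM1, SAA1 and CEBPD are also known to respond to NF-κB, and CCND1 and BIRC5 are also cell cycle genes.

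**Figure D4:**
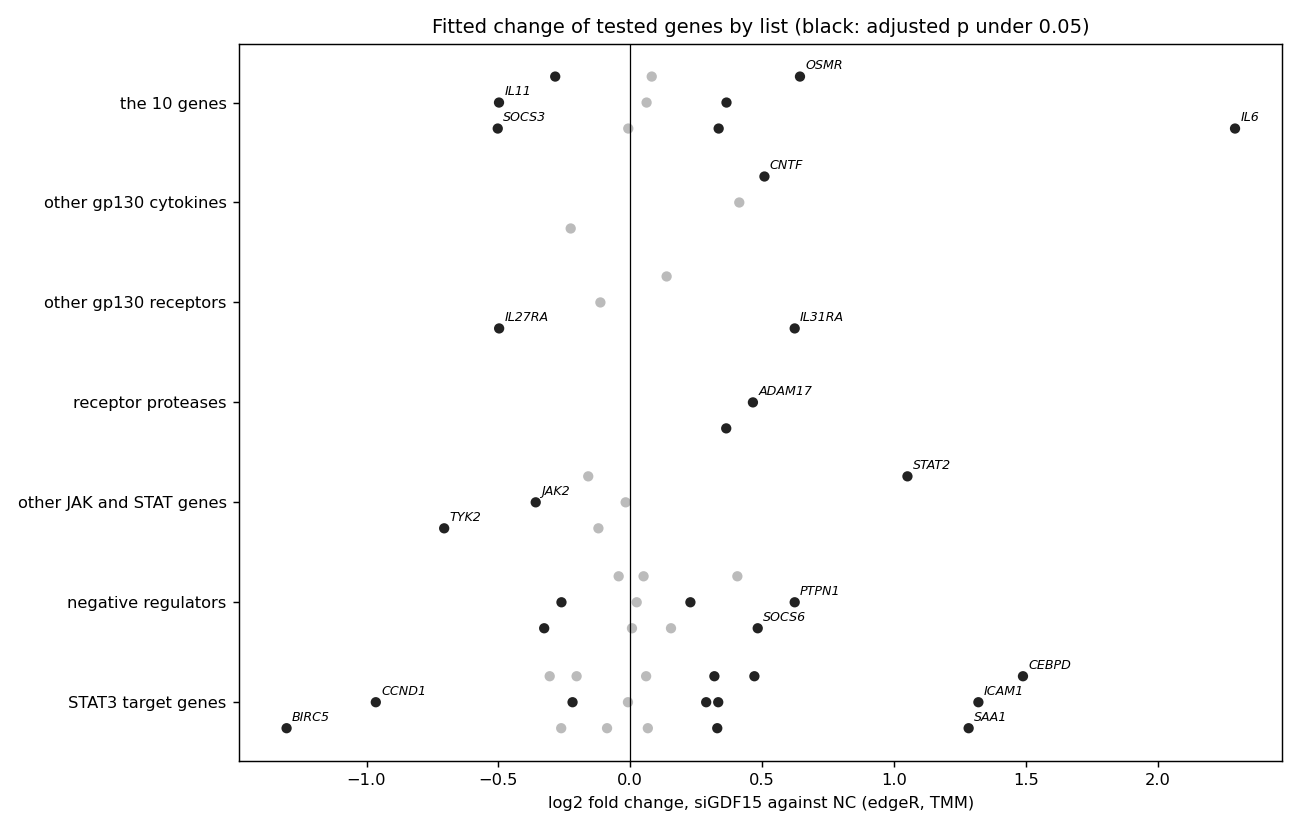
Fitted log2 fold change of siGDF15 against NC (horizontal axis) for each tested gene, by list (rows); black points passed an adjusted p of 0.05 in edgeR and gray points did not, and the small vertical offsets only separate points. Genes on both sides of 0 passed the test in 4 of the 6 pathway lists, and IL6 lies farther out than any gene of those lists.

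The 3 tested genes outside the set whose pattern over the 6 libraries was nearest to that of IL6 were NABP1, CXCL1 and TM4SF4. Nearness was the root mean square distance of log2 CPM (counts scaled to the library size, centred on each gene's mean), which was 0.0979 for NABP1, 0.145 for CXCL1 and 0.151 for TM4SF4. With 2 groups of libraries this measure mostly reflects a similar size of the difference between them. CXCL1, a neutrophil chemokine, went from a mean of 12.9 to 57.3 FPKM (log2 fold change 2.25). NABP1, a single-strand DNA binding protein, went from 2.50 to 11.0 FPKM (log2 fold change 2.24) and TM4SF4, a membrane protein, from 0.821 to 3.42 FPKM (log2 fold change 2.15). TM4SF4 passed the filter only through its siGDF15 libraries, and with a mean of at least 0.1 FPKM as the filter its log2 fold change was 2.11.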

How the data were processed

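RNA was sequenced as read pairs on a NovaSeq instrument from 3 NC and 3 siGDF15 libraries. Per the submitters' processing notes, fastp, HISAT2, StringTie, edgeR and GRCh38 were used; versions and annotation release are not given in the sources used here. The authors deposited FPKM values and, without normalization, whole-number counts, here taken to be expected counts. Positions are those of the deposited table, and 4 of the 10 genes had the same start and end in GENCODE 29.

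Genes whose FPKM averaged 1 or more over the 6 libraries were tested with edgeR 4.0.16 (quasi-likelihood test, TMM, two-sided, Benjamini-Hochberg adjustment over all tested genes) in R 4.3.3. Standard errors came from the fold change and its F statistic, and 95% intervals from the same fit. The fit was tested on simulated data. Exact permutation tests used scipy 1.17.1. Alternatives were DESeq2 1.42.0, limma 3.58.1 on log2-transformed FPKM (pseudocount 1 or 0.1), no TMM, other filters, the replicate number as a block, each library left out in turn and, chosen after seeing the data, counts divided by 4 and a ligand sum divided by the TMM factors.

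Named genes were the 10 genes, GDF15, list genes past an adjusted p of 0.05 that changed by 1 or more on the log2 scale, the 3 smallest adjusted p-values among STAT3 targets, negative regulators and other JAK and STAT genes, and the 3 genes nearest to IL6. The 10 genes, the lists and the tests were chosen with earlier results of these data known. Where nothing shows separate cultures, p-values measure only the spread between these samples. Same-numbered NC and siGDF15 libraries had correlations of deviations from group means of 0.0276, -0.0753 and 0.0458, so the numbers were not taken as pairs. Some genes of the lists are not reported here by name.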

Additional observations from a re-analysis of the deposited data

How the results depend on the processing

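IL6, LIF, CLCF1, OSMR, STAT3, SOCS3 and GDF15 kept their direction and their call in all 14 alternatives. The log2 fold change of IL6 lay between 1.15 and 2.42, the lowest from limma on log2(FPKM + 1). IL6R and JAK1, which did not pass the test, changed sign to -0.020 and -0.040 without TMM, to -0.017 and -0.039 with limma at a pseudocount of 1 and to -0.022 and -0.043 at 0.1. IL6ST lay between -0.046 and 0.020 with 1 library left out. It was -0.11 without TMM and with limma at either pseudocount, and did not pass the test there either. IL11 was called in 9 of 14 alternatives. The replicate block left every call of the 10 genes in place (IL11, adjusted p = 0.044 from edgeR) and gave 371 genes higher and 572 lower at a log2 fold change of at least 1, against 360 and 567 without it. Those counts were 817 and 852 with a mean FPKM of at least 0.1, and 800 and 859 with no filter, where more genes were tested. With limma at a pseudocount of 1 only 131 were higher. The number of pathway genes that were lower went from 8 to 14 with limma at either pseudocount. The genes of the KEGG JAK-STAT pathway that were higher went from 19 to 11 without TMM and to 12 with limma. The difference of the summed ligand FPKM, siGDF15 minus NC, went from -1.78 to 0.173 when divided by the TMM factors. The causes of these shifts were not tested. Low transcripts such as IL6 in NC rest on few read pairs.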

Other observations

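The deposited table places 135 genes in the KEGG JAK-STAT signaling pathway, a list taken up after seeing the data. Of these, 9 are among the 10 genes described above, all but CLCF1. Of 75 tested genes, 19 (25.3%) were higher and 21 (28.0%) lower in siGDF15 at an adjusted p-value under 0.05 from edgeR, against 30.0% and 31.4% of all tested genes, with a median log2 fold change of 0.01. Beside IL6, 2 genes rose with a log2 fold change of at least 1, and none fell as far. They were STAT2 and IFNE, an epithelial type I interferon, which went from a mean of 0.716 to 1.51 FPKM (log2 fold change 1.18, standard error 0.24, adjusted p = 0.0027 from edgeR). IFNE passed the filter only through its siGDF15 libraries, and with a mean of at least 0.1 FPKM as the filter its log2 fold change was 1.15 (adjusted p = 0.0061 from edgeR). The largest fall was that of IL20RB, a receptor chain for the IL20 family of cytokines, from 20.4 to 9.64 FPKM (log2 fold change -0.97, adjusted p = 9.5e-06 from edgeR). IFNGR1, the ligand binding chain of the interferon gamma receptor, rose from 8.87 to 14.3 FPKM (log2 fold change 0.79, adjusted p = 1.1e-05 from edgeR). IL20RB, IFNE and IFNGR1 were chosen after their values were seen.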
